A study of Mus musculus with 20 samples.

Results

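The genes described are Klf2, Klf3, S1pr1, Ccr7, Il7r, Foxo1, Tcf7 and Lef1, a set of 8 among the 23992 gene symbols measured, chosen because they are known for T cell quiescence or for entry into and exit from lymph nodes. Where a symbol had several transcripts, the one with most reads in the 20 libraries together stood for it, and 7 of the 8 have a single transcript in the files. RNA was sequenced from mouse regulatory T cells (Tregs) and CD8+ T cells of spleen and lymph node. Tregs came from B6-Foxp3EGFP mice, in which green fluorescent protein marks cells that express Foxp3, by enrichment of CD4+ cells and then a sort on GFP. The CD8+ T cells were enriched with a kit from C57BL/6J mice according to the protocol, whereas the strain given for every library is C57BL/6N. The age of the mice was not given in the sources used here. Cells were left unstimulated and taken at 0 h, or were given a cytokine at 200 nM, either IL-2 or its derivative IL-2-REH, and taken after 90 min or 4 hr, so there were 5 groups of each cell type. IL-2-REH is a partial agonist, IL-2 with substitutions that weaken its contact with the common γ chain. No library of cells kept in culture without cytokine was analysed here, so cytokine and time in culture cannot be told apart in a comparison with unstimulated cells. There were 3 numbered libraries of every Treg group but a single library of every CD8+ group. The labels do not say that these libraries came from separate mice, so p-values measure the spread between these samples.

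In resting T cells the transcription factor FOXO1 stays in the nucleus and maintains a program of naive and memory cells, which includes Klf2 and the IL-7 receptor. KLF2 in turn sustains the genes for S1PR1, the receptor that lets a T cell leave a lymph node, and for adhesion molecules used to enter it, while CCR7 guides cells to the T cell zone. IL-2 receptor signalling activates STAT5 and the PI3K/AKT pathway, and AKT moves FOXO1 out of the nucleus. TCF1, encoded by Tcf7, and its relative LEF1 are transcription factors of naive and stem-like T cells.

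Libraries held between 20201392 and 63903764 reads on genes in Tregs and between 38201668 and 45189835 in CD8+ T cells, and the shallowest was replicate 3 of IL-2 at 4 hr. The defining markers fitted both labels. The summed RPKM (reads scaled to exon length and library size) of 2 CD8+ T cell markers was at most 12.7 in Tregs and at least 282 in CD8+ T cells, and that of 6 Treg markers was at least 810 in Tregs and at most 93.0 in CD8+ T cells. The unstimulated Treg libraries were uneven. In replicate 1 the sum over 9 macrophage or dendritic cell markers was 17.3 RPKM, against 88.4 in replicate 2 and 66.2 in replicate 3. Replicate 1 was low in this sum with cytokine too. There it ranged from 7.86 to 15.6 in replicate 1 and from 22.6 to 47.2 in replicates 2 and 3. None of these 9 markers was at 0 in the unstimulated libraries, and another listed marker, Adgre1, was not analysed here. The sum over 6 erythroid markers was 231 RPKM in unstimulated replicate 3, and lay between 132 and 199 in the other replicate 3 libraries. Replicate 1 of unstimulated Tregs also stood apart in Ccr7 and Tcf7, so results that rest on it are given with and without it. Because the values of Ccr7 and Tcf7 helped to single it out, their fits without it are a description, not a separate test. The single unstimulated CD8+ library also stood apart from the 4 CD8+ libraries with cytokine. Its summed RPKM was 728 for the CD8+ T cell markers against 282 to 493, 751 for 3 T cell markers against 411 to 486, 39.6 for 4 NK cell markers against 19.4 to 23.7, and 44.0 for the macrophage or dendritic cell markers against 15.01 to 23.7. The part of other cells in any result was not tested.

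The genes lie on 5 chromosomes of GRCm38 (mm10). Klf2 (NM_008452) lies at chr8:72319062-72321654 on the plus strand, Klf3 (NM_008453) at chr5:64803521-64832901 on the plus strand, and S1pr1 (NM_007901) at chr3:115710433-115715055 on the minus strand. Ccr7 (NM_007719) lies at chr11:99144199-99155077 and Il7r (NM_008372) at chr15:9506159-9529941, both on the minus strand. Foxo1 (NM_019739) lies at chr3:52268337-52350109 on the plus strand, Tcf7 (NM_009331) at chr11:52246527-52283383 on the minus strand, and Lef1 (NM_010703) at chr3:131110297-131224357 on the plus strand. All values are sums over the exons of these transcripts. An exon of Klf3 overlaps one of Gm20033, an exon of Foxo1 one of Gm20402 and an exon of Lef1 one of Gm43352, and reads in these overlaps cannot be assigned with certainty because the use of strand in counting was not given in the sources used here.

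Promoter windows of 260 bases, from 250 before the start site to 10 after it, were taken from RefSeq (GRCm38.p6), which held 10 windows of 6 of the genes; Ccr7 and S1pr1 had no entry. The windows of Il7r, Tcf7 and Klf2 are shown because the tests below turn on the first pair of genes and because Klf2 stands between FOXO1 and S1PR1. Each is written 5′ to 3′ along the gene's own strand, with a motif match in capitals: the STAT5 motif TTCNNNGAA in Il7r (chr15:9529867-9530126, minus strand), the FOXO motif GTAAACA in Tcf7 (chr11:52282586-52282845, minus strand) and the KLF motif GGGTG in Klf2 (chr8:72318812-72319071, plus strand). Both Tcf7 windows in RefSeq lie inside the measured transcript, downstream of its start, so the one shown belongs to another start site. The Il7r window begins upstream of the measured transcript and ends inside it. The start site of that window lies a short way inside the transcript, and its STAT5 match lies upstream of the transcript.
Il7r: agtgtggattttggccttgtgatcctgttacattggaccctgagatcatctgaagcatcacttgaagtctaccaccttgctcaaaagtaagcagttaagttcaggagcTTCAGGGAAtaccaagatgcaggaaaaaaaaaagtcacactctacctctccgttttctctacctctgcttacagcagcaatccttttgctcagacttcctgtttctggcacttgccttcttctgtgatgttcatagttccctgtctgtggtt
Tcf7: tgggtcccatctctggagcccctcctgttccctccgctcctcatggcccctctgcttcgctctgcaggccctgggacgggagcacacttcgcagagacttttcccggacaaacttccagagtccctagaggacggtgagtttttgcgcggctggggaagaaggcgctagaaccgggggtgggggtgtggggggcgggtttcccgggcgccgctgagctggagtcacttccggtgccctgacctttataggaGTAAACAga
Klf2: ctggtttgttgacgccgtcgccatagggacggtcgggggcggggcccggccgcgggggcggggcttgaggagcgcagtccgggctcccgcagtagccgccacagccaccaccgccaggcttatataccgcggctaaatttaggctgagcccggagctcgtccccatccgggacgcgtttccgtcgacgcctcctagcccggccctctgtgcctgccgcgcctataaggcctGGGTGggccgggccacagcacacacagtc
The STAT5 match of Il7r begins at base -142 from the start site, the FOXO match of Tcf7 at base 2 after it and the KLF match of Klf2 at base -19. Both strands were searched over 32851 promoter windows. The STAT5 letters, which read alike on both strands, occurred in 7.33% of all windows and in 1 of the 10 windows of these genes. The FOXO letters occurred in 3.3% of all windows and in 1 of the 10. The short KLF letters occurred in 53.2% of all windows and in 8 of the 10, among them the Tcf7 window shown, and the TCF/LEF letters CTTTGAT in 3.35% of all windows and in 0 of the 10. A match describes letters in the window and was not tested as a binding site.

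Unstimulated cells of both types expressed all 8 genes. In the unstimulated CD8+ library the highest level was that of Tcf7, 378 RPKM, followed by Klf2 at 197, Ccr7 at 153, S1pr1 at 145, Il7r at 130.0, Lef1 at 102, Klf3 at 70.0 and Foxo1 at 51.2. In unstimulated Tregs the mean level was 208 ± 75.3 RPKM for Klf2, 206 ± 202 for Ccr7, 139 ± 62.1 for Tcf7, 104 ± 30 for S1pr1, 70.1 ± 10.5 for Foxo1, 69.5 ± 15.1 for Il7r, 47.4 ± 15.6 for Klf3 and 41.8 ± 9.05 for Lef1 (SD, n = 3). Neighbours in this order overlapped between libraries, so their order is not set beyond the spread, except that every library held more S1pr1 than any held Foxo1. Tcf7 and Lef1 were lower in Tregs than in the CD8+ library by more than 1 on the log2 scale in all 3 comparisons of a Treg library with it, which 5.48% of expressed genes did in either direction. For Tcf7 the log2 ratios of RPKM + 1 were -2.44, -1.01 and -1.23, and for Lef1 they were -1.64, -1.22 and -1.01. Il7r was lower in all 3 Treg libraries too, with log2 ratios of -1.19, -0.59 and -0.97, whereas Foxo1 was higher, with log2 ratios of 0.66, 0.41 and 0.24. With 1 CD8+ library of another mouse line and isolation, none of these differences was tested.

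**Figure D1:**
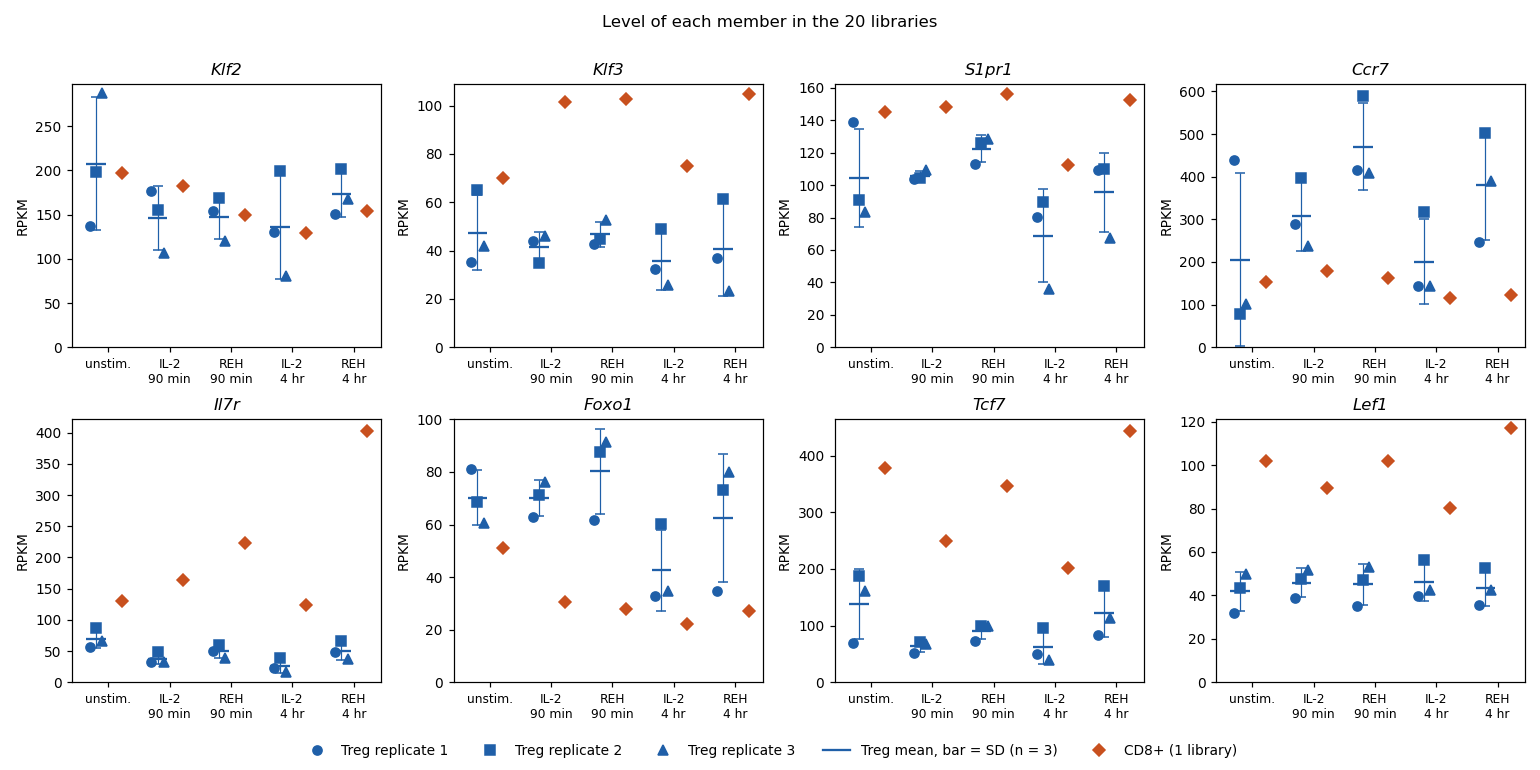
RPKM (vertical axes, from 0) of the 8 genes in the 20 libraries by treatment; blue symbols are Treg replicates 1 to 3 with their mean and SD (n = 3), and orange diamonds are single CD8+ libraries. Il7r and Tcf7 of CD8+ T cells were highest with IL-2-REH at 4 hr, and unstimulated Treg replicate 1 was apart from the others in Ccr7.

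Il7r, which encodes the α chain of the IL-7 receptor, fell in Tregs given IL-2 for 4 hr. Its RPKM was 56.6, 86.1 and 65.7 in unstimulated replicates 1 to 3. With IL-2 it was 32.2, 47.7 and 32.9 at 90 min and 23.5, 38.7 and 15.6 at 4 hr. Every IL-2 library was below every unstimulated library. The log2 fold change at 4 hr was -1.37 (SE 0.28, 95% interval -1.97 to -0.77, adjusted p = 0.023, edgeR quasi-likelihood with Benjamini-Hochberg adjustment), lower in 3 of 3 same-numbered pairs. In bulk RNA, fewer cells that express a gene and less RNA per cell cannot be told apart. Adding the replicate number to the fit as a block gave -1.42 (edgeR adjusted p = 0.0013). The change at 90 min was -0.71 (SE 0.27, edgeR adjusted p = 0.271) and did not pass. With IL-2-REH, Il7r was 50.0, 59.4 and 38.8 RPKM at 90 min and 47.8, 65.6 and 37.4 RPKM at 4 hr, which overlapped the unstimulated libraries. The log2 fold changes were -0.34 (SE 0.27, edgeR adjusted p = 0.641) and -0.46 (SE 0.27, edgeR adjusted p = 0.508).

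The call at 4 hr was lost in several fits with fewer libraries. Without replicate 2 of every group, Il7r changed by -1.6 (edgeR adjusted p = 0.195), and without replicate 3 by -1.15 (edgeR adjusted p = 0.415). In these fits 0.0197% and 0.0719% of all genes passed, against 2.26% with all libraries. Leaving out unstimulated replicate 2 gave -1.3 (edgeR adjusted p = 0.077) and unstimulated replicate 3 -1.39 (edgeR adjusted p = 0.071). There 0.887% and 0.465% of all genes passed. Without the shallow replicate 3 of IL-2 at 4 hr it was -1.15 (edgeR adjusted p = 0.082), and without unstimulated replicate 1 it was -1.43 (edgeR adjusted p = 0.014). The shares of all genes passing were 1.01% and 8.87%. Without that shallow library the call was kept with the replicate block, at -1.24 (edgeR adjusted p = 0.0061), where 3.38% of all genes passed. With the block and without unstimulated replicate 1, Il7r also passed at 90 min of IL-2, at -0.73 (edgeR adjusted p = 0.017), in a fit where 26.9% of all genes did. The STAT5 letters printed above lie in the promoter window of this gene, as they do in 7.33% of all windows. Their part in the change was not tested.

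The CD8+ libraries were highest in Il7r with IL-2-REH. Il7r measured 130.0 RPKM unstimulated. IL-2 gave 164.1 RPKM at 90 min and 123.2 RPKM at 4 hr. IL-2-REH gave 223 RPKM at 90 min and 403 RPKM at 4 hr. The last library was 3.08-fold higher than the unstimulated library (log2 ratio 1.62), and it was the only CD8+ library whose Il7r differed from unstimulated by more than 1 on the log2 scale.

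By edgeR without the replicate block, Il7r alone of the 8 genes passed among the 4 comparisons with unstimulated Tregs, and only with IL-2 at 4 hr. There 2.26% of the 14992 tested genes passed, and the median log2 fold change of the 8 genes was -0.58 against 0.00 over all genes tested. With IL-2 at 90 min, 0 of the 8 passed by edgeR (0.854% of all genes), and DESeq2 and limma called 0. There 2 of the 8 had an unadjusted p under 0.05 by edgeR, as had 2068 of the 14992 tested genes. With IL-2-REH, 0 of the 8 passed by edgeR at 90 min (0.0934% of all genes) and at 4 hr (0.314% of all genes), where DESeq2 and limma again called 0. At these times 1 and 0 of the 8 had an unadjusted p under 0.05 by edgeR, beside 1702 and 1999 of all tested genes. With the replicate block the shares of all genes were 1.83% and 6.94% for IL-2 and 0.213% and 3.03% for IL-2-REH at 90 min and 4 hr, and the counts among the 8 were 0, 2, 0 and 0. The gene added by the block was Tcf7. All of these comparisons share the unstimulated libraries.

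**Figure D2:**
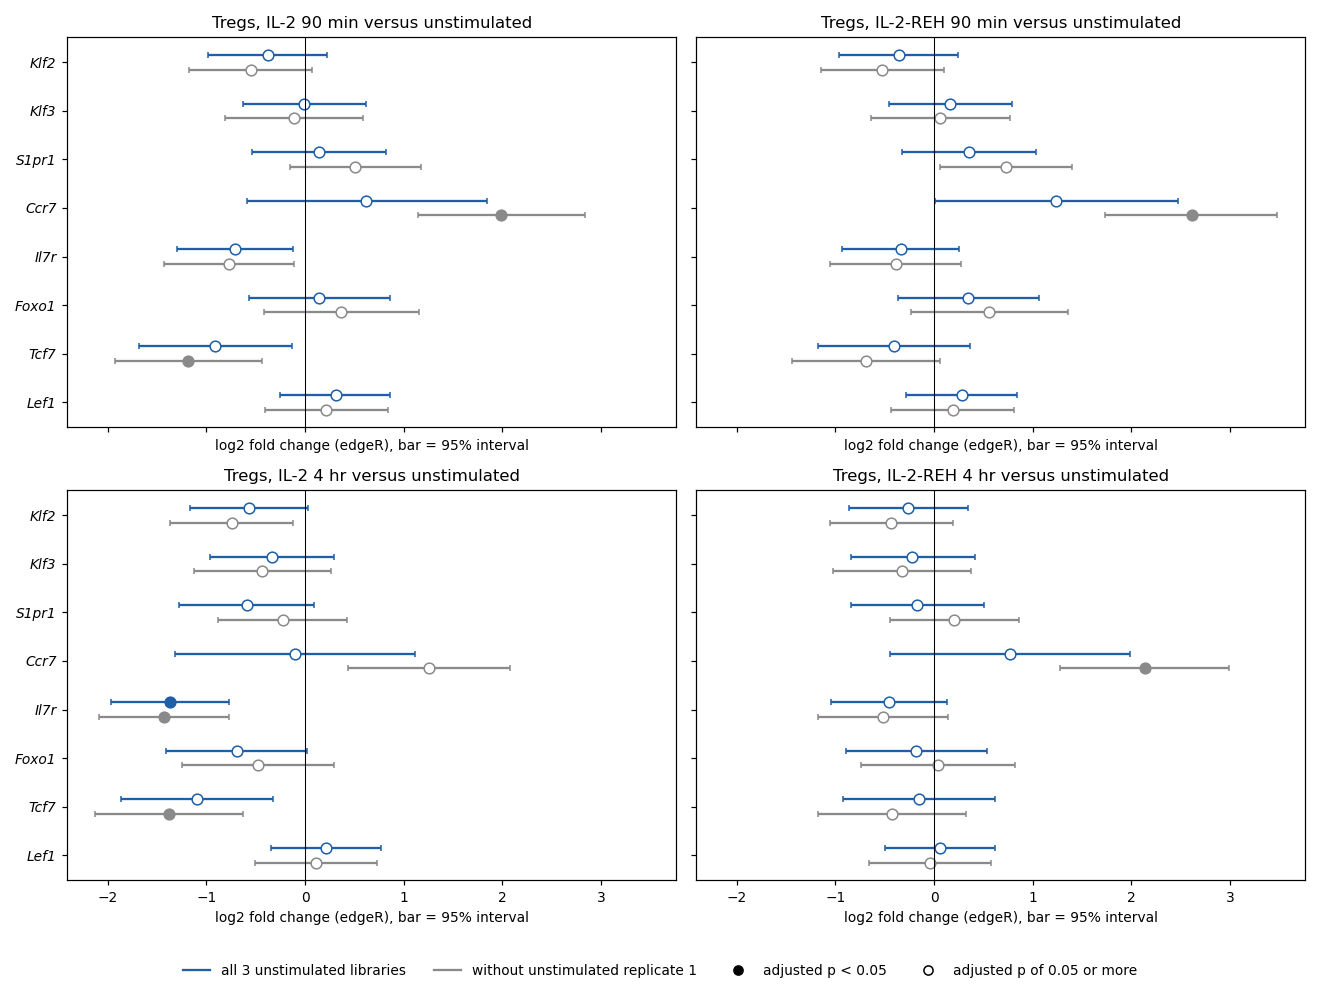
Log2 fold changes (horizontal axis) of the 8 genes in Tregs against unstimulated cells in 4 panels, with 95% intervals from edgeR; blue uses all 3 unstimulated libraries, grey leaves out replicate 1, and filled points have an adjusted p under 0.05. With all libraries, Il7r with IL-2 at 4 hr is the only filled point. Without unstimulated replicate 1, which was singled out in part by its Ccr7 and Tcf7 values, these genes also pass in some panels.

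Tcf7, which encodes TCF1, did not pass in Tregs by edgeR's test without the replicate block when all libraries were kept, but other fits called it at 4 hr of IL-2. Unstimulated Tregs held 68.7, 187 and 160.3 RPKM, so that replicate 1 was far below the others. With IL-2, Tcf7 measured 51.9, 71.7 and 68.3 RPKM at 90 min and 50.4, 95.9 and 38.9 RPKM at 4 hr, lower than the same-numbered unstimulated library in 3 of 3 pairs at both times, while the groups overlapped through replicate 1. The log2 fold change was -0.91 at 90 min (SE 0.36, edgeR adjusted p = 0.289) and -1.10 at 4 hr (SE 0.36, 95% interval -1.87 to -0.32, edgeR adjusted p = 0.137). With the replicate block the change at 4 hr was -1.04 and passed (SE 0.24, edgeR adjusted p = 0.02). DESeq2 also called it, at -1.09 (DESeq2 adjusted p = 0.042), in a fit where 6.64% of all genes passed. Without unstimulated replicate 1, Tcf7 also passed without the block, at -1.19 for 90 min (edgeR adjusted p = 0.039) and -1.38 for 4 hr (edgeR adjusted p = 0.028). There 12.9% and 8.87% of all genes passed. With the block as well, the changes of Tcf7 were -1.02 and -1.20. Unstimulated replicate 1 was singled out in part by its Tcf7 value, so these calls are a description only. Without the shallow replicate 3 of IL-2 at 4 hr, Tcf7 did not pass at 4 hr, at -0.90 (edgeR adjusted p = 0.398) and, with the block, at -0.75 (edgeR adjusted p = 0.053). With IL-2-REH, Tcf7 measured 73.4, 99.2 and 98.9 RPKM at 90 min and 84.2, 169.6 and 114 RPKM at 4 hr, with log2 fold changes of -0.41 and -0.15 (edgeR adjusted p = 0.67 and 0.901). Replicate 1 was thus the lowest of its group in Tcf7 with IL-2 at 90 min and with IL-2-REH at both times, not only when unstimulated. The CD8+ level of Tcf7 was 378 RPKM unstimulated, 249 and 201 after IL-2 and 346 and 444 after IL-2-REH at 90 min and 4 hr.

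Lef1, the relative of Tcf7, stayed within a narrow range in Tregs. Its lowest, median and highest RPKM over the Treg libraries were 32.1, 43.3 and 56.1, and its log2 fold changes against unstimulated lay between 0.06 and 0.31 in the 4 comparisons (edgeR adjusted p between 0.635 and 0.948). The 95% intervals of the 4 together reached from -0.50 to 0.86, and without unstimulated replicate 1 the fold changes lay between -0.04 and 0.21. CD8+ T cells held Lef1 at 102 RPKM unstimulated, 89.7 and 80.4 with IL-2 and 102 and 117 with IL-2-REH.

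Ccr7, the chemokine receptor for entry into lymph nodes, depended on which unstimulated libraries it was set against. Unstimulated Tregs held 439, 77.8 and 100.8 RPKM in replicates 1 to 3. With IL-2 they held 289, 396 and 237 RPKM at 90 min and 143, 316 and 144 RPKM at 4 hr. With IL-2-REH they held 415, 588 and 408 RPKM at 90 min and 247, 502 and 389 RPKM at 4 hr. All 12 libraries with cytokine were above unstimulated replicates 2 and 3, and 10 of them were below replicate 1. With all libraries the log2 fold changes were 0.62 and -0.10 for IL-2 and 1.24 and 0.77 for IL-2-REH at 90 min and 4 hr, with an SE of 0.57 each, and 0 of the 4 passed by edgeR (adjusted p between 0.439 and 0.941; unadjusted p of 0.049 for IL-2-REH at 90 min), DESeq2 or limma.

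Without unstimulated replicate 1, Ccr7 was higher by 1.99 with IL-2 at 90 min (edgeR adjusted p = 0.0061), by 2.61 with IL-2-REH at 90 min (edgeR adjusted p = 0.0017) and by 2.14 with IL-2-REH at 4 hr (edgeR adjusted p = 0.0086). For IL-2 at 4 hr it was 1.26 (edgeR adjusted p = 0.058), and 1.36 with the replicate block (edgeR adjusted p = 0.004). Unstimulated replicate 1 was singled out in part by its Ccr7 value, so these p-values are a description only. Leaving out that library gave a pass to 12.9% and 8.87% of all genes for IL-2 and to 12.1% and 6.93% for IL-2-REH at 90 min and 4 hr, larger shares than with all libraries. The 2 remaining unstimulated libraries held the highest sums of macrophage or dendritic cell markers, 88.4 and 66.2 RPKM, and the part of those cells in the change was not tested. The CD8+ level of Ccr7 was 153 RPKM unstimulated, 179 and 114 with IL-2 and 162.1 and 124 with IL-2-REH at 90 min and 4 hr.

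S1pr1, the receptor for egress, was 139, 90.9 and 83.5 RPKM in unstimulated Tregs. With IL-2 it was 104, 104 and 109 RPKM at 90 min and 80.1, 89.9 and 36.0 RPKM at 4 hr, the lowest value being that of the shallow replicate 3. With IL-2-REH it was 113, 126 and 128 RPKM at 90 min and 109, 110.1 and 67.5 RPKM at 4 hr. At 90 min all 6 libraries with cytokine lay above unstimulated replicates 2 and 3 and below replicate 1, and at 4 hr the groups overlapped. Its log2 fold change with IL-2 at 4 hr was -0.59 (SE 0.32, edgeR adjusted p = 0.348), but -0.22 without unstimulated replicate 1 and -0.32 without the shallow library (edgeR adjusted p = 0.655 and 0.746). S1pr1 of CD8+ T cells measured 145 RPKM unstimulated and between 112 and 156 with cytokine, lowest with IL-2 at 4 hr.

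Klf2, which sustains S1pr1, was 138, 198 and 287 RPKM in unstimulated Tregs, 130.4, 199 and 80.3 with IL-2 at 4 hr and 151, 202 and 167.2 with IL-2-REH at 4 hr. The groups overlapped, and the log2 fold changes were -0.57 (SE 0.28, edgeR adjusted p = 0.311) and -0.26 (SE 0.28, edgeR adjusted p = 0.75), or -0.74 and -0.44 without unstimulated replicate 1 (edgeR adjusted p = 0.129 and 0.371). At 90 min Klf2 lay between 106 and 177 RPKM with IL-2 and between 120.0 and 169 with IL-2-REH. The CD8+ libraries held it at 197 RPKM unstimulated, 182 and 129 with IL-2 and 150.2 and 154 with IL-2-REH at 90 min and 4 hr. Klf3, a relative of Klf2 that represses transcription, ranged from 23.1 to 65.0 RPKM over the Treg libraries, and its log2 fold changes against unstimulated lay between -0.33 and 0.16 (edgeR adjusted p between 0.59 and 0.995). Klf3 of CD8+ T cells was 70.0 RPKM unstimulated and higher in each library with cytokine, between 75.1 and 105.

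Foxo1 encodes the transcription factor that AKT excludes from the nucleus, a step that RNA levels do not show. Its RPKM in Tregs was 81.3, 68.6 and 60.6 unstimulated, 32.7, 60.3 and 34.6 with IL-2 at 4 hr and 34.7, 73.3 and 79.8 with IL-2-REH at 4 hr. Every Treg library with IL-2 at 4 hr was below every unstimulated library, by a narrow margin for replicate 2. The log2 fold change was -0.69 (SE 0.33, 95% interval -1.41 to 0.02, edgeR adjusted p = 0.3) and did not pass. Without unstimulated replicate 1 it was -0.48, and -0.24 with the block as well (edgeR adjusted p = 0.4 and 0.432). At 90 min Foxo1 measured 62.7, 71.4 and 76.0 RPKM with IL-2 and 61.6, 87.6 and 91.5 RPKM with IL-2-REH, which overlapped the unstimulated libraries. The log2 fold changes at 90 min were 0.14 and 0.34 (SE 0.33 each, edgeR adjusted p = 0.905 and 0.71). With the block and without unstimulated replicate 1, Foxo1 with IL-2-REH at 90 min was 0.76 higher and passed (edgeR adjusted p = 0.021), in a fit where 25.4% of all genes did. Foxo1 of CD8+ T cells measured 51.2 RPKM unstimulated, 30.5 and 22.0 with IL-2 and 27.7 and 27.2 with IL-2-REH at 90 min and 4 hr, so each library with cytokine was below the unstimulated library. The log2 ratio of IL-2 at 4 hr to unstimulated was -1.19, and the unstimulated library is the one whose markers stood apart.

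Among the CD8+ comparisons with unstimulated cells, 0 of the 8 genes passed an absolute log2 ratio of 1 at 90 min with IL-2 (7.24% of all genes) or IL-2-REH (8.57%). At 4 hr 1 passed with IL-2, namely Foxo1 (4.71% of all genes), and 1 with IL-2-REH, namely Il7r (6.11%). With IL-2 at 4 hr 7 of the 8 were lower than unstimulated, with a median log2 ratio of -0.39 against -0.07 over all genes, and with IL-2-REH at 4 hr 5 were higher and 3 lower, with a median of 0.14 against -0.02. The share of all genes that were lower or higher in these 2 pairs is not given here, so the counts of direction are a description only. The CD8+ ratios to unstimulated have no replicate check, and all of them rest on the unstimulated library with the higher marker sums given above. The part of that library in them was not tested.

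IL-2-REH and IL-2 were also set against each other at the same dose and time, which does not use the unstimulated libraries. At 4 hr 6 of the 8 genes were higher with IL-2-REH in all 3 same-numbered pairs of Treg libraries, which 29.8% of expressed genes were, and the exceptions were Klf3 and Lef1. For Il7r the log2 ratios of the 3 pairs were 1.0, 0.75 and 1.21, for Tcf7 they were 0.73, 0.82 and 1.53, and for Ccr7 they were 0.79, 0.67 and 1.43. For S1pr1 they were 0.44, 0.29 and 0.89, for Foxo1 0.08, 0.28 and 1.18, and for Klf2 0.21, 0.02 and 1.05. The third pair, which holds the shallow IL-2 library, gave the highest ratio for each of these 6 genes.

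None of these differences passed the test over all genes, in which 0.0267% of genes passed (0.0667% with the replicate block). An unadjusted p under 0.05 by edgeR was reached by 559 of the 14992 tested genes. The fitted log2 difference at 4 hr was 0.91 for Il7r (95% interval 0.32 to 1.50, edgeR adjusted p = 0.898) and 0.95 for Tcf7 (95% interval 0.17 to 1.72, edgeR adjusted p = 1.0), and these 2 had an unadjusted p under 0.05. Without the third IL-2 library, Il7r differed by 0.69 and Tcf7 by 0.75 (edgeR adjusted p = 1.0 for both). With the replicate block Il7r was 0.94 (edgeR adjusted p = 0.126) and Tcf7 0.92 (edgeR adjusted p = 0.242). Ccr7 differed by 0.88 with an interval of -0.34 to 2.1, Foxo1 by 0.52 with an interval of -0.20 to 1.23 and S1pr1 by 0.43 with an interval of -0.25 to 1.11. The intervals of Klf2 (-0.29 to 0.91), Klf3 (-0.51 to 0.74) and Lef1 (-0.71 to 0.41) also included 0. DESeq2 and limma called 0 of the 8.

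At 90 min 4 of the 8 genes, S1pr1, Ccr7, Il7r and Tcf7, were higher with IL-2-REH in all 3 pairs (21.4% of expressed genes were). The pairs of Tcf7 gave log2 ratios of 0.49, 0.46 and 0.53, those of Ccr7 0.52, 0.57 and 0.78, those of Il7r 0.62, 0.31 and 0.23 and those of S1pr1 0.13, 0.27 and 0.23. By edgeR 0 of the 8 passed, with or without the block (0.0133% of all genes passed in both fits), and DESeq2 and limma called 0. By edgeR without the block 0 of the 8 had an unadjusted p under 0.05, as 149 of all tested genes had. The change of the difference from 90 min to 4 hr was also tested, and 0 of the 8 and 0 of all genes passed by edgeR, where 47 of all genes and 0 of the 8 had an unadjusted p under 0.05 and DESeq2 and limma called 0 genes. For Il7r this change was 0.54 with a 95% interval of -0.29 to 1.37.

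In CD8+ T cells all 8 genes were higher with IL-2-REH than with IL-2 at 4 hr, as were 61.8% of expressed genes, with a median log2 ratio of 0.46 against 0.08 over all genes. Il7r was 3.25-fold higher (log2 ratio 1.70) and Tcf7 2.2-fold higher (log2 ratio 1.14), and these 2 passed an absolute log2 ratio of 1, as did 2.23% of all genes. The ratios of the others were 0.54 for Lef1, 0.48 for Klf3, 0.44 for S1pr1, 0.30 for Foxo1, 0.26 for Klf2 and 0.11 for Ccr7. At 90 min 5 of the 8 were higher with IL-2-REH (29.5% of expressed genes were), led by Tcf7 at 0.47 and Il7r at 0.44, and 0 passed an absolute log2 ratio of 1 (0.868% of all genes did).

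**Figure D3:**
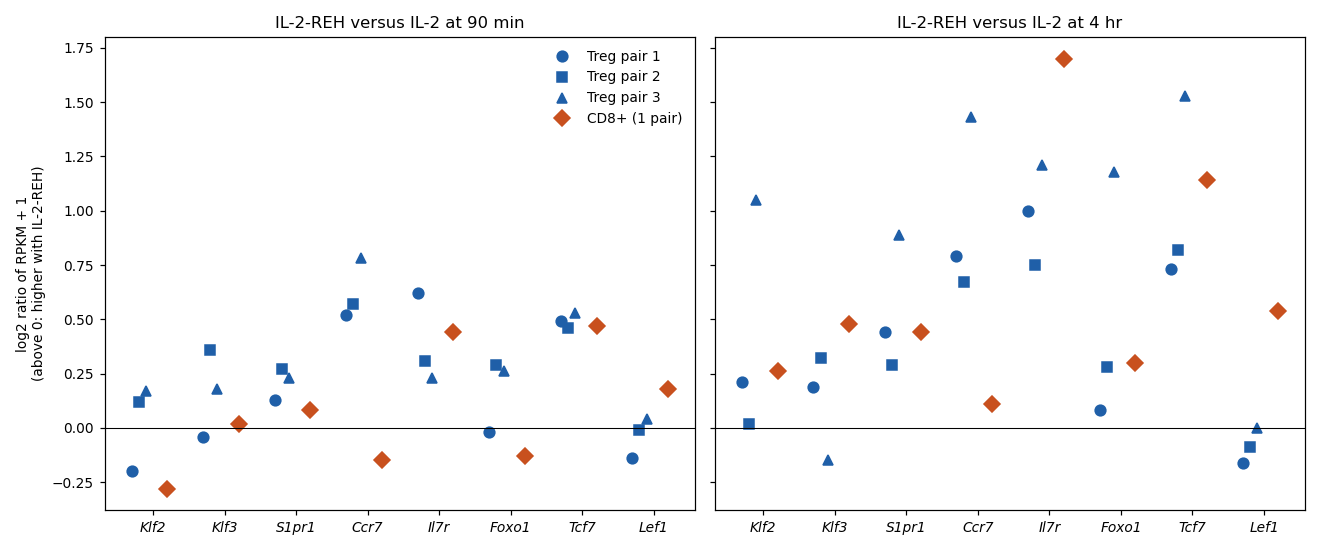
Log2 ratio of RPKM + 1 of IL-2-REH over IL-2 (vertical axis) for the 8 genes at 90 min (left) and 4 hr (right); blue symbols are the 3 same-numbered Treg pairs and orange diamonds the single CD8+ pair. At 4 hr Il7r and Tcf7 lie at 0.73 or above in all 4 pairs, while the Treg pairs of Lef1 lie between -0.16 and 0.00.

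Between 90 min and 4 hr with the same cytokine, 0 of the 8 genes and 0.0% of all genes passed by edgeR for both cytokines. With IL-2, 3 of the 8 had an unadjusted p under 0.05, namely Foxo1 at -0.84 (95% interval -1.56 to -0.12), S1pr1 at -0.73 (-1.42 to -0.05) and Il7r at -0.66 (-1.25 to -0.07). With IL-2-REH, 0 of the 8 did. Over all genes 2556 and 2187 had an unadjusted p under 0.05. With the replicate block 0.387% of genes passed for IL-2 and 0.04% for IL-2-REH, 0 of the 8 among them, and DESeq2 and limma also called 0 of the 8.

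Other genes of the same pathways were followed in lists chosen with earlier results of these data known. The list counts at 4 hr are read beside the shares of all genes past the same threshold in either direction. In Tregs these were 2.26% for IL-2 and 0.314% for IL-2-REH by edgeR, or 6.94% and 3.03% with the block. In CD8+ T cells they were 4.71% and 6.11%. Between the cytokines they were 0.0267% in Tregs without the block and 2.23% in CD8+ T cells. Of 15 genes of the FOXO, KLF and PI3K/AKT pathway, 0 rose and 1 fell in Tregs given IL-2 for 4 hr, with a median log2 fold change of -0.34 against 0.00 over all genes. The gene that fell was Klf4, a KLF factor that restrains proliferation in T cells and is also expressed in myeloid cells, at -3.01 (SE 0.48, edgeR adjusted p = 0.0066). Klf4 measured 30.7, 8.83 and 34.1 RPKM in unstimulated Tregs and 3.18, 4.12 and 1.94 RPKM with IL-2 at 4 hr. The macrophage or dendritic cell markers summed to 17.3, 88.4 and 66.2 RPKM in the same unstimulated libraries and to between 7.86 and 28.9 with IL-2 at 4 hr, and their part in the change was not tested. With the replicate block 4 of the 15 fell with IL-2 at 4 hr by edgeR's test, as did 611 of the 14992 tested genes. With IL-2-REH at 4 hr 0 of the 15 passed by edgeR without the block. With the block 1 fell, Klf4 at -2.36 (edgeR adjusted p = 0.017), as did 302 of all tested genes. In CD8+ T cells given IL-2 for 4 hr, 0 of the 15 were higher and 3 were lower by more than 1 on the log2 scale. The lowest were Klf4 at -2.1 and Sgk1, a kinase downstream of PI3K, at -1.51. With IL-2-REH at 4 hr 0 were higher and 2 were lower, Klf4 at -2.04 and Sgk1 at -1.39. Between the cytokines at 4 hr, 0 of the 15 passed by edgeR in Tregs and 0 passed an absolute log2 ratio of 1 in the CD8+ pair. The CD8+ ratios to unstimulated rest on the library whose marker sums stood apart.

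Of 18 genes of quiescence and restraint of the cell cycle, 1 rose and 1 fell in Tregs given IL-2 for 4 hr, with a median of -0.24. Bach2, a repressor that holds back effector differentiation, rose by 1.05 (SE 0.23, edgeR adjusted p = 0.032), and Tsc22d3, which encodes a glucocorticoid-induced leucine zipper protein, fell by 0.97 (SE 0.22, edgeR adjusted p = 0.036). With IL-2-REH against IL-2 at 4 hr, 0 of the 18 passed by edgeR in Tregs. In the CD8+ pair 1 of the 18 was higher by more than 1, namely Tob1, an antiproliferative gene, with a log2 ratio of 1.16 (7.49 RPKM after IL-2 and 18.0 RPKM after IL-2-REH), and 0 were lower.

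Of 15 other genes of homing, adhesion and egress, 0 rose and 1 fell in Tregs given IL-2 for 4 hr, with a median of -0.68. It was Itgal, the α chain of the integrin LFA-1, at -1.35 (SE 0.29, edgeR adjusted p = 0.032), with 70.2, 133.6 and 117 RPKM unstimulated and 31.7, 43.4 and 42.2 RPKM with IL-2. With the replicate block 3 fell under each cytokine at 4 hr, in both cases including Itgal and its partner Itgb2. In CD8+ T cells 4 of the 15 were lower and 0 higher by more than 1 with either cytokine at 4 hr. Cd69, which holds S1PR1 inside the cell, had a log2 ratio of -2.84 with IL-2 and one of -2.83 with IL-2-REH. Gpr183, a receptor for oxysterols, had -2.31 and -1.29, whereas Itgb2 had -1.12 and -1.99. These ratios rest on the unstimulated CD8+ library whose marker sums stood apart. Between the cytokines at 4 hr, 0 of the 15 passed by edgeR in Tregs, and in the CD8+ pair Gpr183 alone passed an absolute log2 ratio of 1, at 1.02.

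Of 13 partners of TCF and LEF and genes of the Wnt pathway, 1 rose and 0 fell with IL-2 in Tregs at each time. Myb, a transcription factor of progenitor cells, rose by 1.64 at 90 min (SE 0.28, edgeR adjusted p = 0.012) and by 1.51 at 4 hr (SE 0.28, edgeR adjusted p = 0.014). In the CD8+ pair at 4 hr Myb was higher with IL-2-REH than with IL-2 by 1.16 on the log2 scale.

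Known targets of IL-2 and STAT5 served as a check of the response. In Tregs 5 of the 10 rose and 0 fell with IL-2 at 4 hr, with a median log2 fold change of 1.33, and Cish, a feedback inhibitor of cytokine signalling, rose by 1.56 (SE 0.18, edgeR adjusted p = 0.00073). With IL-2-REH at 4 hr 0 of the 10 passed by edgeR and 3 rose with the replicate block, Socs2 by 1.32 (edgeR adjusted p = 0.026). In CD8+ T cells 7 of the 10 were higher by more than 1 with IL-2 at 4 hr. With IL-2-REH at 4 hr 0 were higher and 3 were lower than unstimulated by more than 1, with a median of -0.05 against -0.02 over all genes. Both counts rest on the unstimulated library whose marker sums stood apart. With IL-2-REH against IL-2 at 4 hr, 8 of the 10 were lower by more than 1, with a median of -2.30 against 0.08 over all genes and with Cish at -2.97.

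The genes whose pattern over the 10 groups was most like each member were found by the root mean square difference of group means of log2(RPKM + 1), centred within each cell type, over 6400 genes expressed in both. For Il7r they were Cd55, a complement regulator, at 0.242 and Arl5c at 0.264, where the median over all genes was 0.586. For Tcf7 they were Fam105a at 0.126 and Pik3ip1, an inhibitor of PI3K, at 0.155, against a median of 0.463. For Ccr7 they were Ptplad1 at 0.214 and Cdk11b at 0.222, against 0.489, and for Foxo1 Ccl5 at 0.108 and Pnrc1 at 0.114, against 0.398. The nearest genes of Klf2 were Hmgn2 and Atmin, those of Klf3 Arfgef1 and 9930021J03Rik, those of S1pr1 Nfatc3 and Serp1 and those of Lef1 Usp48 and Fbxl12, with differences between 0.059 and 0.084. Among the 8 genes themselves, Il7r was nearest to Tcf7, at 0.347, and S1pr1 and Klf3 were nearest to each other, at 0.188. These are descriptions over 10 groups, 5 of which hold 1 library.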

How the data were processed

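The authors mapped reads to mm10 (Bowtie2 2.2.6, TopHat2 2.1.1, SAMtools 0.1.8 and bedtools 2.25.0, per the labels' processing notes) and deposited tables of 31682 RefSeq transcripts. The deposited count is the raw number of reads on a transcript's exons, and the deposited RPKM is that number per kilobase of exon and per mapped read depth of the library. The 20 libraries held 20201392 to 63903764 reads on genes, and 0 pairs of libraries were identical.

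The design set limma if RPKM alone were given and edgeR on counts otherwise. Counts of the 15 Treg libraries were therefore fitted with edgeR 4.0.16 (TMM, filterByExpr, quasi-likelihood test, 1 mean per group) in R 4.3.3, with Benjamini-Hochberg adjustment over 14992 genes and a threshold of 0.05. The filter kept all 8 members. CD8+ T cells had 1 library per group, so log2 ratios of RPKM + 1 were described without a test, with an absolute value of 1 as threshold, for genes whose mean RPKM reached 1. The pseudocount understates changes of low genes.

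Same-numbered Treg libraries deviated from their group means together in 30 of 30 pairs (correlation across genes 0.121 to 0.84), so the numbers given in the labels were taken to pair the samples, and the block is printed where it changes a call. The main fit does not use this pairing, nor do fits that left out libraries unless the block is named. With IL-2 at 4 hr the SE was 0.28 without and 0.20 with the block for Il7r, and 0.36 and 0.24 for Tcf7. Alternatives were the replicate block, limma 3.58.1 on log2(RPKM + 1), DESeq2 1.42.0, no filter on low counts, the longest transcript, a pseudocount of 0.1, centring on medians, and leaving out replicates. Leaving out replicate 3 of IL-2 at 4 hr, and the block together with leaving out a library, were chosen after seeing the data. The weight given to fits without unstimulated replicate 1 also followed from values seen, among them those of Ccr7 and Tcf7.

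The members, the pathway lists and the motifs were chosen with earlier results of these data known. Named were all members, and of each list up to 2 of the highest and 2 of the lowest changes past the threshold, except that 1 gene is not reported here. Klf4, Itgal and Tob1 were given by library after their values were seen. Promoter windows came from RefSeq, and protein sequences were not used here.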

Additional observations from a re-analysis of the deposited data

Results flagged for a closer look

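In 6 cases the single CD8+ pair moved the opposite way from all 3 same-numbered Treg pairs, and with 1 CD8+ library per group none of these differences between the cell types was tested. Il7r accounted for 3 of them. Against unstimulated cells its CD8+ log2 ratio was 0.33 with IL-2 at 90 min, where the Treg pairs gave -0.80, -0.84 and -0.98. With IL-2-REH the CD8+ ratio of Il7r was 0.77 at 90 min, beside -0.18, -0.53 and -0.74 in Tregs, and 1.62 at 4 hr, beside -0.24, -0.39 and -0.80 in Tregs. These 3 ratios rest on the unstimulated CD8+ library whose marker sums stood apart. The last of these was the only CD8+ ratio of the 6 past 1 in absolute value.

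Lef1 with IL-2 at 90 min had a CD8+ ratio of -0.18 and Treg ratios of 0.26, 0.13 and 0.04. Klf3 with IL-2 at 4 hr had a CD8+ ratio of 0.10 and Treg ratios of -0.12, -0.40 and -0.68. For IL-2-REH against IL-2 at 90 min, Ccr7 had a CD8+ ratio of -0.15 and Treg ratios of 0.52, 0.57 and 0.78.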

How the results depend on the processing

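With IL-2 for 4 hr, where 1 of the 8 genes passed, the count was 2 with the replicate block and 2 with DESeq2, which added Tcf7. These fits called 6.94% and 6.64% of all genes, against 2.26% without the block by edgeR. The count was 0 to 3 over 7 fits that left out libraries, and 3 with the block and without unstimulated replicate 1 together. With IL-2 at 90 min, where 0 passed, it was 0 to 2 over 6 such fits and 3 in the combined fit. With IL-2-REH at 90 min it was 0 to 1 and 2 in the combined fit, and with IL-2-REH at 4 hr 0 to 1 and 1 in the combined fit. The combined fit called 26.9% and 21.0% of all genes for IL-2 and 25.4% and 16.7% for IL-2-REH at 90 min and 4 hr. The fits without replicate 1 of every group called 10.7% to 17.3%. For IL-2 at 4 hr, those without replicate 2 or replicate 3 of every group called 0.0197% and 0.0719%. The counts among the 8 are read against these shares. Fits that leave out a library rest on fewer samples. In the comparisons of cytokines and of times the replicate block changed no call of the 8 genes, and neither did the absence of a filter or the longest transcript in any comparison. The cause of the other changes was not tested.

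No log2 fold change that passed with all libraries turned its sign. Those that did turn were not past the threshold with all libraries, and their lowest and highest values in fits without a replicate follow. With IL-2 at 90 min they were -0.62 and 0.05 for Klf2, -0.27 and 0.27 for Klf3, -0.13 and 0.60 for S1pr1, -0.05 and 2.1 for Ccr7 and -0.12 and 0.50 for Foxo1. With IL-2 at 4 hr they were -0.95 and 0.02 for Klf2 and -0.90 and 1.44 for Ccr7. With IL-2-REH at 90 min they were -0.60 and 0.03 for Klf2 and -0.09 and 0.36 for Klf3. With IL-2-REH at 4 hr they were -0.44 and 0.08 for Klf2, -0.40 and 0.20 for S1pr1, -0.54 and 0.33 for Foxo1, -0.43 and 0.02 for Tcf7 and -0.10 and 0.24 for Lef1. Between cytokines they were -0.03 and 0.13 for Klf2 and -0.06 and 0.00 for Lef1 at 90 min, and -0.05 and 0.21 for Klf3 at 4 hr. From 90 min to 4 hr with IL-2 they were -0.37 and 0.04 for Klf2, -0.62 and 0.03 for Klf3, -0.44 and 0.19 for Tcf7 and -0.20 and 0.13 for Lef1. With IL-2-REH they were -0.76 and 0.07 for Klf3 and -0.31 and 0.00 for Lef1. For the change of the cytokine difference over time they were -0.19 and 0.04 for Klf3, -0.06 and 0.33 for S1pr1 and -0.01 and 0.52 for Foxo1.

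With the block, Klf3 at 90 min of IL-2 became 0.02. With the block and without unstimulated replicate 1, Ccr7 with IL-2 at 4 hr became 1.36, and with IL-2-REH at 4 hr S1pr1 became 0.18 and Foxo1 0.20. With the block and without replicate 3 of IL-2 at 4 hr, Klf3 between cytokines at 4 hr became -0.03, the IL-2 changes over time became 0.05 for Klf2, 0.12 for Tcf7 and 0.06 for Lef1, and the change of the difference became -0.04 for S1pr1. With limma on log2(RPKM + 1), Ccr7 with IL-2 at 4 hr became 0.30, and the changes over time became 0.00 for Lef1 with IL-2 and 0.01 for Il7r with IL-2-REH.

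For CD8+ T cells the median log2 ratio of all genes was -0.12 with IL-2-REH at 90 min against unstimulated, so centring moved every ratio of that comparison by as much and turned Lef1 from -0.00 to 0.12. At 4 hr all 8 genes were still higher with IL-2-REH than with IL-2 after centring, Ccr7 by 0.03. Members had at least 1651 reads in every library, the lowest being Il7r in Treg replicate 3 of IL-2 at 4 hr. The CD8+ groups had no replicates, so these CD8+ ratios carry no measure of spread between libraries. The part of counting error was not tested.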
